A study of Caenorhabditis elegans with 15 samples.

Results

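Citrate cycle enzymes were followed through 15 libraries of tagged, trans-spliced RNA from the nematode Caenorhabditis elegans. The 8 genes were taken by their symbols from the deposited table of raw read counts, which holds 14831 genes: cts-1, aco-1, aco-2, idh-1, dlst-1, fum-1, mdh-1 and mdh-2. All 8 passed the filter on low counts and were tested. The rule takes genes by symbol and uses no measured value, but the list was chosen with earlier results of these data known. The list holds some enzymes of the cycle and cytosolic counterparts. Other enzymes of the cycle are described further below.

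In the citrate cycle, mitochondria join acetyl groups to oxaloacetate, oxidise the product step by step and pass the electrons to the respiratory chain. Some steps have a second enzyme in the cytosol, which moves reducing equivalents and citrate between the compartments. Body-wall muscle contracts through the life of the worm, and the dauer larva, a non-feeding stage entered under poor conditions, is known for a shift towards fat and the glyoxylate shunt.

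The method adds a tagged spliced leader to messenger RNA. Most C. elegans messages receive a short leader by trans-splicing, SL1 at the start of most genes and SL2 at downstream genes of operons, and a promoter chosen for a tissue drives a tagged copy of that leader. Muscle was tagged with Pmyo-3::tag:SL1(G16C) at the larval stages L1 (1 library) and L2 (1), in dauers (2), in young adults (2) and on day 12 (2). Neurons were tagged with Prgef-1::tag:SL1(G16C), a pan-neuronal promoter, on day 12 (2) and in young adults (2). Multiple tissues were tagged with PU2-3::tag:SL1(G16C) in worms of mixed stage (2), and 1 further muscle library of mixed stage carried Pmyo-3::tag:SL2(T5A). The title and strain of that last library say SL2 and its description says SL1. Every animal carried a transgene, at 20 °C. Day 12 is counted from young adults as day 1, and day 12 animals grew on 400 µM fluorodeoxyuridine, so age and drug cannot be told apart. Dauers came from liquid culture and were purified with SDS, sucrose and Ficoll, so stage and handling cannot be told apart either. Multiple tissues differ from every muscle and neuron group in stage as well as tissue. The labels do not say whether replicates came from separate cultures, so p-values measure the spread between these libraries.

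Library totals ran from 57104 reads in day 12 neurons to 9587967 in a dauer library, and a count of 3 reads, taken as the floor of detection, equals 0.281 to 32.4 counts per 1000000 (CPM). Levels below are CPM on libraries scaled by TMM. SL1-tag libraries read only RNA that received the SL1 tag. For genes that also take SL2, less RNA and a change of leader cannot be told apart there. Summed body-wall muscle markers (12 genes in the table) reached 37000 CPM in L1 muscle, 21400 in L2, 4610 to 5700 in dauers, 42000 to 44000 in young adult muscle and 8810 to 21100 on day 12, 616 to 692 CPM in day 12 neurons, 68.7 to 83.4 CPM in young adult neurons and 71.6 to 77.5 CPM in multiple tissues; unc-15 was at 0 in every muscle group and myo-3 at 0 in neurons. Summed neuron markers (12 genes) reached 3380 to 5770 CPM in neurons, but also 4070 to 4580 CPM in young adult muscle and 382 to 2860 CPM in the other muscle groups, against 498 to 547 CPM in multiple tissues. Of the 12, 7 had a read in young adult neurons, with unc-64, unc-13, unc-18, unc-31 and sbt-1 at 0. In day 12 neurons 9 had a read, with unc-13, unc-31 and sbt-1 at 0, and in young adult muscle 9 did. Germline markers (10 genes) summed to 0 to 44.6 CPM in muscle and neurons, against 5270 to 5590 CPM in multiple tissues, with none of the 10 at 0 there. Intestine markers (3 genes) summed to 0 to 92.3 CPM, against 359 to 368 CPM, and hypodermis markers (5 genes) reached 254 CPM in L2 muscle, against 18.4 to 19.5 CPM in multiple tissues. The part of these markers in the results below was not tested. These are bulk libraries, in which fewer cells of a type and less RNA per cell cannot be told apart.

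Reads of the 8 genes together made up 0.288% of the L1 muscle library, 0.165% of L2, 0.17% and 0.136% of the dauer libraries, 0.219% and 0.22% in young adult muscle and 0.0625% and 0.0455% in day 12 muscle. They were 0.0613% and 0.0268% in day 12 neurons and 0.0311% and 0.0372% in young adult neurons, against 0.269% and 0.25% in multiple tissues. Day 12 muscle and all neuron libraries thus lay below every other SL1-tag library. Intervals and floors here cover counting error only, because amplified reads without identifiers do not count separate molecules.

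**Figure D1:**
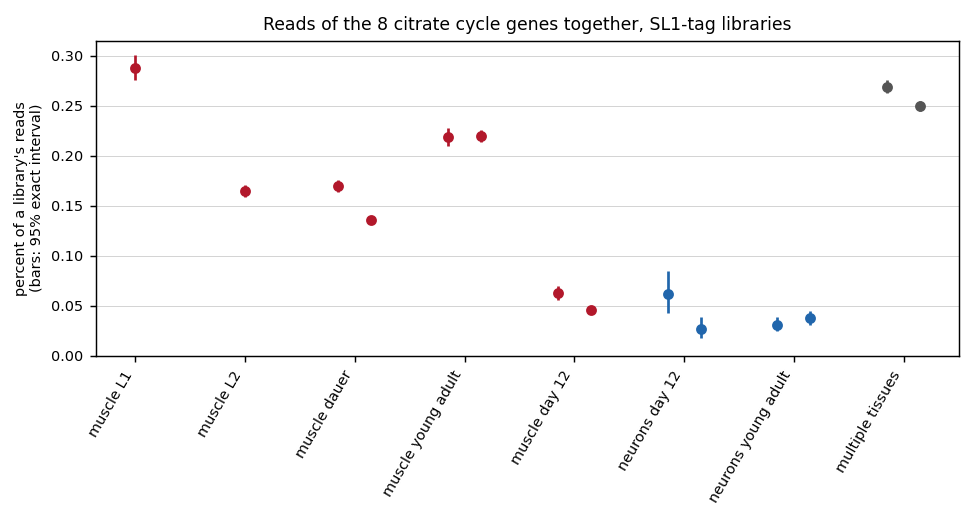
Percent of each SL1-tag library's reads that fell on the 8 citrate cycle genes (y axis, linear from 0), 1 point per library, with 95% exact (Clopper-Pearson) intervals. Day 12 muscle and both neuron groups sit at or under 0.0625%, and the other libraries at or over 0.136%.

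The genes lie on 4 chromosomes (WBcel235, whose exon starts match 90.6% of the 32276 deposited cis sites). On chromosome III are cts-1 (WBGene00000833, minus strand, chrIII:10214771-10216635), aco-2 (WBGene00000041, plus, chrIII:7973717-7977355), fum-1 (WBGene00001503, plus, chrIII:7465605-7467640) and mdh-2 (WBGene00003162, minus, chrIII:6606544-6608106). On chromosome V are dlst-1 (WBGene00020950, minus, chrV:6707056-6709101) and mdh-1 (WBGene00018491, minus, chrV:6515283-6516526). Gene idh-1 (WBGene00010317, minus) is at chrIV:9439078-9441107 and aco-1 (WBGene00000040, plus) at chrX:11339874-11343327.

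Each gene was read almost entirely from 1 trans-splice acceptor site. The leading site held all trans reads of aco-1, aco-2 and mdh-1, and between 99.18% (fum-1) and 99.97% (dlst-1 and idh-1) of those of fum-1, cts-1, dlst-1 and idh-1. In 6 genes this site was the annotated 5′ end of the gene, from 1 base (mdh-1) to 18 bases (cts-1) before the nearest start codon. In idh-1 it lay 320 bases inside the annotated gene, 22 bases before a start codon. In fum-1 it lay 24 bases downstream of the annotated 5′ end, which in this annotation is also the start codon. The malate dehydrogenase gene mdh-2 was the 1 member with a second site of over 2.0% of its trans reads, 16 bases downstream of the first (2.19%). That second site took 27 of 81 reads in dauer replicate 1 and 0 of 269 in dauer replicate 2, 8 of 39 and 0 of 151 in the day 12 muscle libraries, and 7 of 131 and 21 of 297 in young adult muscle, against 4 of 687 and 8 of 1027 in multiple tissues. It had no read in larval muscle. Replicates of dauer and of day 12 muscle thus differed from each other in the share of reads at this site. In each pair the library without a read there had more reads on fewer genes. Dauer replicate 2 had 9587967 reads on 4569 genes, against 1974529 on 7945 in replicate 1. Day 12 replicate 2 had 1684401 on 4322, against 464359 on 5203. The part of this in the difference was not tested.

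Citrate synthase, which opens the cycle, is encoded by cts-1. Its level was 942 CPM in L1 muscle, 647 in L2, 374 and 450.0 in dauers, 618 and 774 in young adult muscle and 20.8 and 57.5 on day 12, 108 and 25.4 in day 12 neurons and 94.3 and 72.3 in young adult neurons, against 356 and 359.8 CPM in multiple tissues. Muscle up to the young adult was above multiple tissues in every library. Both neuron groups and day 12 muscle were below it. Day 12 neurons overlapped both young adult neurons and day 12 muscle, which did not overlap each other.

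The aconitases turn citrate into isocitrate, in mitochondria (aco-2) and in the cytosol (aco-1, a relative of the vertebrate iron regulatory protein). The level of aco-2 was 29.6 CPM in L1 muscle, 59.0 in L2, 64.7 and 47.6 in dauers, 105 and 62.0 in young adult muscle and 61.0 and 28.1 on day 12, 0 in all 4 neuron libraries, against 14.1 and 13.7 CPM in multiple tissues. All 8 SL1-tag muscle libraries were above multiple tissues, with dauers overlapping young adult and day 12 muscle, which did not overlap each other. In unscaled CPM young adult muscle (82.65 and 44.99) and day 12 muscle (88.29 and 26.72) overlapped. The level of aco-1 was 1.56 CPM in L1 muscle, 0 in L2, 4.38 and 0 in dauers, 6.43 and 4.82 in young adult muscle and 5.95 and 14.4 on day 12, 0 and 6.35 in day 12 neurons and 0 in both young adult neuron libraries, against 14.7 and 17.2 CPM in multiple tissues. Multiple tissues were highest, and the muscle and neuron groups rested on 0 to 23 reads a library.

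The cytosolic isocitrate dehydrogenase idh-1 makes NADPH from isocitrate. It had 46.8 CPM in L1 muscle, 113 in L2, 80.7 and 26.8 in dauers, 37.3 and 30.1 in young adult muscle and 22.3 and 15.0 on day 12, 10.8 and 102 in day 12 neurons and 94.3 and 47.0 in young adult neurons, against 468 and 484 CPM in multiple tissues. Every muscle and neuron library was below both multiple-tissue libraries. Day 12 muscle was the lowest group by mean, and its libraries lay under those of young adult muscle on the TMM scale. In unscaled CPM day 12 muscle (32.3 and 14.2) and young adult muscle (29.2 and 21.8) overlapped.

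The E2 subunit of the oxoglutarate dehydrogenase complex, which releases carbon dioxide on the way to succinyl-CoA, is encoded by dlst-1. It had 937 CPM in L1 muscle, 463 in L2, 318 and 102 in dauers, 814 and 1061 in young adult muscle and 0 and 1.25 on day 12, 32.4 and 25.4 in day 12 neurons and 68.9 and 170.0 in young adult neurons, against 486 and 461 CPM in multiple tissues. Young adult muscle was above multiple tissues in both libraries. Day 12 muscle held 0 and 2 reads in libraries of 464359 and 1684401 reads, under every other library.

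Fumarase, encoded by fum-1, hydrates fumarate to malate. It had 187 CPM in L1 muscle, 55.7 in L2, 66.6 and 37.3 in dauers, 105 and 86.7 in young adult muscle and 5.95 and 0 on day 12, 32.4 and 0 in day 12 neurons and 0 and 7.23 in young adult neurons, against 113 and 105 CPM in multiple tissues. L1 muscle was the highest library, and among the replicated groups young adult muscle and multiple tissues overlapped at the top. Day 12 muscle and both neuron groups overlapped at the bottom, on 0 to 4 reads a library.

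Malate dehydrogenase closes the cycle in mitochondria (mdh-2), and its cytosolic form (mdh-1) serves the malate shuttle. The level of mdh-1 was 544 CPM in L1 muscle, 315 in L2, 684 and 529 in dauers, 936 and 832 in young adult muscle and 257 and 268 on day 12, 184 and 6.35 in day 12 neurons and 18.1 and 54.2 in young adult neurons, against 1749 and 1634 CPM in multiple tissues. On this TMM scale the replicated groups were ordered without overlap as multiple tissues, then young adult, dauer and day 12 muscle, then neurons, whose ages overlapped. In unscaled CPM young adult muscle (733.8 and 603.7) overlapped dauers (713.1 and 589.8), and day 12 muscle (372.6 and 254.7) overlapped day 12 neurons (297.7 and 8.92). The level of mdh-2 was 499 CPM in L1 muscle, 260.1 in L2, 39.4 and 25.2 in dauers, 168 and 179 in young adult muscle and 58.0 and 94.4 on day 12, 10.8 and 25.4 in day 12 neurons and 10.9 and 28.9 in young adult neurons, against 420.3 and 392 CPM in multiple tissues. Dauers lay with the neurons for mdh-2, below all other muscle libraries, but not for mdh-1.

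**Figure D2:**
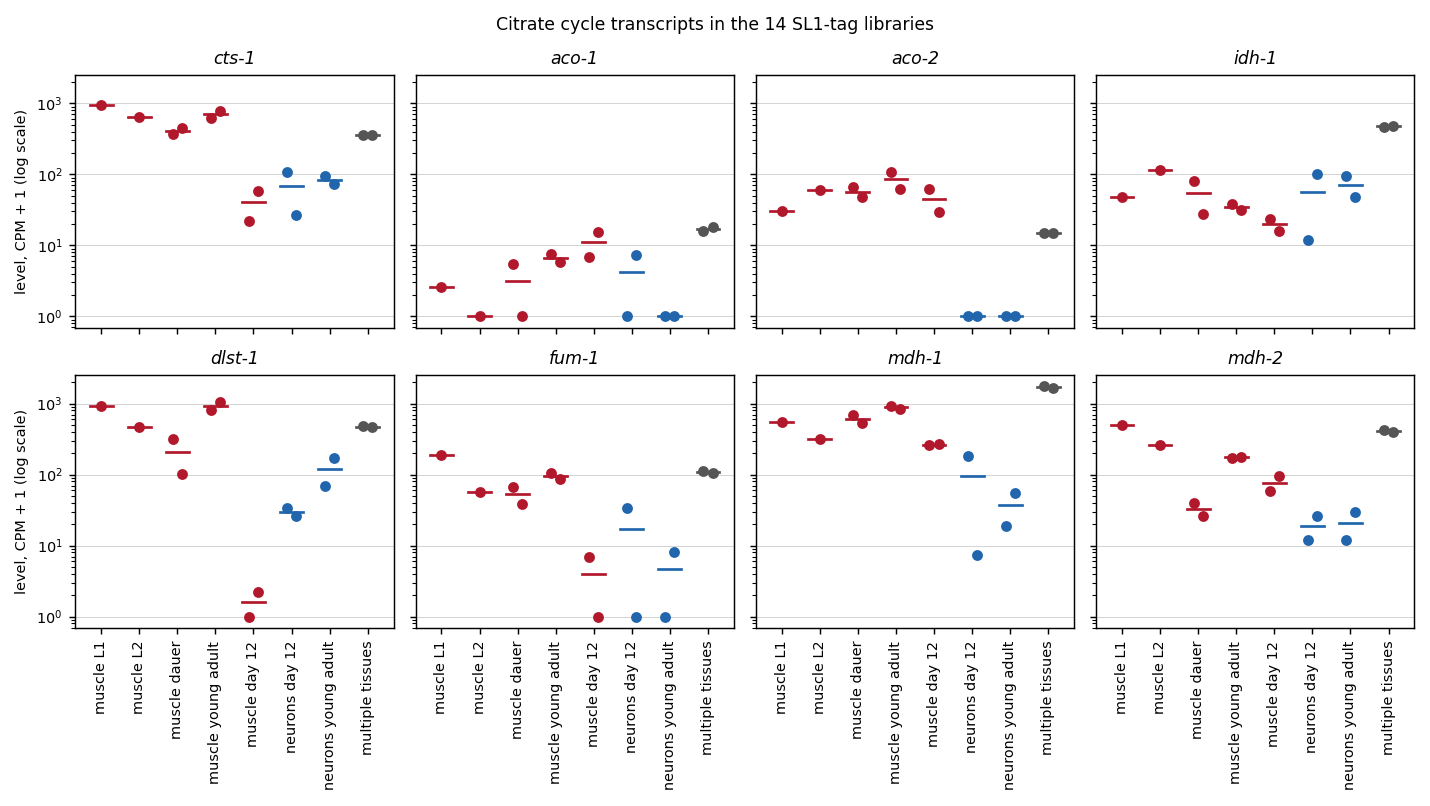
Level of each of the 8 genes, as CPM + 1 on a log axis, in the 14 SL1-tag libraries (points; bars are group means; muscle red, neurons blue, multiple tissues grey). In dlst-1 the day 12 muscle libraries sit at 0 and 1.25 CPM, and in aco-2 all 4 neuron libraries sit at 0.

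In day 12 muscle, 2 of the 8 genes fell relative to young adult muscle by edgeR's quasi-likelihood test with Benjamini-Hochberg adjustment over 8954 tested genes at a threshold of 0.05, used for every adjusted p below; 0.949% of all tested genes fell and 1.55% changed. The dlst-1 level averaged 0.625 ± 0.884 CPM on day 12 and 938 ± 175 CPM in young adults (SD, n = 2 each), a fitted log2 fold change of -10.04 ± 1.12 (SE, with adjusted p = 0.00637). By counts, young adults were 1120-fold above the 2 reads of day 12 (95% counting interval 309 to 9220). Citrate synthase cts-1 averaged 39.2 ± 25.9 CPM on day 12 and 696 ± 109.7 CPM in young adults, a log2 fold change of -4.13 ± 0.76 (SE, with adjusted p = 0.0343). Both genes had groups that did not overlap. Of the 6 others, fum-1 had -5.17 ± 1.89 (SE, with adjusted p = 0.188), mdh-1 -1.75 ± 0.92 (SE, with adjusted p = 0.305) and mdh-2 -1.18 ± 0.69 (SE, with adjusted p = 0.333). The median log2 fold change was -1.47 over the 8 genes and 0 over all tested genes. The operon genes dlst-1, cts-1 and fum-1 also had SL2-tag reads (239, 225 and 1853) in muscle of mixed stage. No SL2-tag library is of day 12 alone. For these genes less RNA and a change of leader thus cannot be told apart. Summed body-wall muscle markers were 8810 to 21100 CPM on day 12 and 42000 to 44000 CPM in young adults, and summed neuron markers were 382 to 1110 CPM on day 12 and 4070 to 4580 CPM in young adults; their part in the result was not tested. Without day 12 replicate 2 the value of cts-1 was -5.07 and the fit gave -13.66 for dlst-1. The remaining day 12 library held 0 dlst-1 reads, which sets the size of that value. Its floor of 3 reads is 4.46 CPM. The dlst-1 call was lost without young adult replicate 1 (-10.24, adjusted p = 0.0711) or 2 (-9.87, adjusted p = 0.0805) and in a fit of these 2 groups alone, with adjusted p from 5.2e-13 to 0.0805 over the alternatives. The cts-1 call was lost without young adult replicate 1 (-4.28, adjusted p = 0.181) or 2 (-3.98, adjusted p = 0.224), without day 12 replicate 1 (-3.61, adjusted p = 0.0658) and in a fit of these groups alone (5.22e-07 to 0.224 over the alternatives).

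Against multiple tissues, 3 of the 8 genes were lower in day 12 muscle, where 4.94% of all tested genes were lower and 9.82% changed. The log2 fold change was -9.06 ± 1.09 (SE, with adjusted p = 0.00108) for dlst-1, with multiple tissues 535-fold above day 12 muscle by counts (148 to 4420). It was -4.68 ± 1.09 (SE, with adjusted p = 0.0264) for idh-1, at 18.6 ± 5.16 CPM on day 12 and 476 ± 11.3 CPM in multiple tissues, and -3.17 ± 0.73 (SE, with adjusted p = 0.0255) for cts-1. Mitochondrial mdh-2 (-2.41 ± 0.71 (SE, with adjusted p = 0.06)), mdh-1 (-2.69 ± 0.95 (SE, with adjusted p = 0.101)) and fum-1 (-5.36 ± 1.90 (SE, with adjusted p = 0.102)) did not pass. Mitochondrial aco-2 was the 1 gene with a positive value, 1.67 ± 1.12 (SE, with adjusted p = 0.324). The median was -2.93 over the 8 genes and -0.29 over all tested genes, the second being 0 with DESeq2's size factors. The dlst-1 call held in each of the 11 alternatives, with adjusted p from 6.83e-12 to 0.0168. Without day 12 replicate 2 the value of cts-1 was -4.22. There the fit gave -12.78 for dlst-1, a size set by 0 reads in the remaining day 12 library. The idh-1 call was lost with DESeq2's size factors (-3.98) and without multiple-tissue replicate 1 (-4.82) or 2 (-4.65) or day 12 replicate 1 (-5.11) or 2 (-4.53), with adjusted p from 0.000202 to 0.117 over the alternatives. The cts-1 call was lost without multiple-tissue replicate 1 (-3.31) or 2 (-3.17) or day 12 replicate 1 (-2.76), with adjusted p from 0.000192 to 0.084.

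The age change of dlst-1 in SL1-tag reads differed between muscle and neurons, being more negative in muscle. As dlst-1 also had SL2-tag reads in muscle, the values cover only a part of its RNA. Its age change in muscle minus that in neurons was -7.98 ± 1.33 (SE, with adjusted p = 0.0318) on the log2 scale, and it was the 1 of 8 genes to pass this interaction test, which 0.603% of all tested genes passed in that direction and 0.804% in either. In neurons dlst-1 averaged 28.9 ± 4.97 CPM on day 12 and 119 ± 71.4 CPM in young adults (n = 2 each), a log2 fold change of -2.06 ± 0.84 (SE, with adjusted p = 0.45), which did not pass. The day 12 neuron libraries held 3 and 4 dlst-1 reads, where the floor of 3 reads is 32.4 and 19.1 CPM. A larger fall in neurons could thus hardly have been seen. All 8 fitted interaction values were below 0, as were those of 5251 of the 8954 tested genes. Those of the aconitases rest on neuron groups with 0 or 1 reads, and that of fum-1 on groups with 2 and 3. On leaving out 1 library, aco-1, idh-1, fum-1 and mdh-1 reached 0.85, 1.86, 0.54 and 0.84, and the other genes stayed below 0. The median was -3.41 over the 8 genes, against -0.93 over all tested genes (-0.70 with DESeq2's size factors). For cts-1 the value was -3.75 ± 1.03 (SE, with adjusted p = 0.128). The dlst-1 call was lost without young adult muscle replicate 1 (-8.18) or 2 (-7.81), young adult neuron replicate 1 (-7.47) or 2 (-8.77), or day 12 neuron replicate 1 (-7.73) or 2 (-8.14), with adjusted p from 1.75e-05 to 0.169 over the alternatives. The dlst-1 value was -7.38 without day 12 muscle replicate 1. It was -11.52 without replicate 2, a size set by 0 reads in the remaining day 12 muscle library.

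On day 12 itself, dlst-1 was lower in muscle than in neurons, the 1 call among the 8 genes; 2.41% of all tested genes were lower and 5.44% changed. The log2 fold change was -5.01 ± 1.09 (SE, with adjusted p = 0.0275), and neurons were 31.8-fold above muscle by counts (6.06 to 314). The day 12 neuron libraries held 3 and 4 dlst-1 reads, at or near the floor of 3 reads (32.4 and 19.1 CPM there). The call was lost without day 12 muscle replicate 1 (-4.36) or 2 (-8.50) or day 12 neuron replicate 1 (-4.71) or 2 (-5.12), and by limma on log2(RPM + 1) (-2.10, on that scale), with adjusted p from 0.000315 to 0.118. The size of -8.50 was set by 0 dlst-1 reads in day 12 muscle replicate 1. In a fit of these groups alone dlst-1 did not pass the filter on low counts and had no value. The other genes lay on both sides of 0, with mdh-2 at 2.00 ± 0.80 (SE, with adjusted p = 0.188) and cts-1 at -0.69 ± 0.74 (SE, with adjusted p = 0.669), where the groups overlapped. In neurons alone, day 12 against young adult, 0 of the 8 genes passed and DESeq2 called 0, while 0.0223% of all tested genes changed. An unadjusted p under 0.05 was seen in 1 of the 8 genes and in 891 of the 8954 tested genes. The libraries of the neuron ages overlapped in 7 of the 8 genes, dlst-1 being the other. The share of all tested genes without overlap was not computed, so this count is a description only.

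In dauer muscle, mdh-2 fell relative to L1 and L2 muscle, the 1 call of 8; 0.603% of all tested genes fell and 3.29% changed. It averaged 32.3 ± 10.0 CPM in dauers (n = 2), against 499 CPM in L1 and 260.1 CPM in L2, a log2 fold change of -3.48 ± 0.74 (SE, with adjusted p = 0.0358). Its cytosolic counterpart mdh-1 had 0.55 ± 0.89 (SE, with adjusted p = 0.839), with overlapping libraries. The oxoglutarate dehydrogenase gene dlst-1 had -1.65 ± 0.73 (SE, with adjusted p = 0.244) without overlap and missed the threshold. The median was -0.68 over the 8 genes and 1.35 over all tested genes (1.42 with DESeq2's size factors). Summed body-wall muscle markers were 4610 to 5700 CPM in dauers, against 37000 CPM in L1 and 21400 CPM in L2, and their part in the result was not tested. The mdh-2 call was lost without L1 (-3.01), without L2 (-3.97), without dauer replicate 2 (-3.23), with L1 and L2 as 1 group (-3.56), with a block for the replicate number (-3.60) and in a fit of these groups alone (-3.57), with adjusted p from 2.21e-10 to 0.141 over the alternatives.

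Against multiple tissues mdh-2 was also lower in dauer muscle, at 32.3 ± 10.0 CPM in dauers and 406 ± 20.1 CPM in multiple tissues (n = 2 each), a log2 fold change of -3.65 ± 0.75 (SE, with adjusted p = 0.0158). It was again 1 call of 8, where 2.31% of all tested genes were lower and 7.45% changed. The same dauer libraries serve both comparisons. Next came idh-1 at -3.15 ± 1.01 (SE, with adjusted p = 0.0891), with no overlap. Without multiple-tissue replicate 1 (-3.71) or 2 (-3.70) or dauer replicate 2 (-3.49) the mdh-2 call was lost (5.68e-12 to 0.109 over the alternatives). Against young adult muscle, 0 of the 8 genes passed in dauers and DESeq2 called 1, mdh-2, while 0.134% of all tested genes changed. An unadjusted p under 0.05 was seen in 2 of the 8 genes and in 691 of the 8954 tested genes. There mdh-2 had -2.43 ± 0.71 (SE, with adjusted p = 0.311) and dlst-1 -2.16 ± 0.74 (SE, with adjusted p = 0.409), neither overlapping.

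In young adult muscle 0 of the 8 genes passed against multiple tissues and DESeq2 called 2 (idh-1 and mdh-2), while 5.12% of all tested genes changed. An unadjusted p under 0.05 was seen in 1 of the 8 genes and in 1894 of the 8954 tested genes. Values of the 8 genes lay on both sides of 0. Mitochondrial aco-2 had 2.58 ± 1.15 (SE, with adjusted p = 0.245), dlst-1 0.99 ± 0.71 (SE, with adjusted p = 0.445) and cts-1 0.96 ± 0.68 (SE, with adjusted p = 0.433), and idh-1 was the lowest at -3.82 ± 1.04 (SE, with adjusted p = 0.0682), at 33.7 ± 5.08 CPM in young adult muscle and 476 ± 11.3 CPM in multiple tissues. In L1 and L2 muscle 0 of 8 passed against multiple tissues and DESeq2 called 1 (idh-1), while 7.01% of all tested genes changed. An unadjusted p under 0.05 was seen in 1 of the 8 genes and in 2352 of the 8954 tested genes. The median there was -0.14 over the 8 genes and -1.43 over all tested genes (-1.36 with DESeq2's size factors). The lowest value with more than 3 reads in each group was idh-1 at -2.71 ± 0.99 (SE, with adjusted p = 0.124). For aco-1, with 1 read in larval muscle, multiple tissues were 35.7-fold higher by counts (6.2 to 1430).

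Both malate dehydrogenases were lower in neurons than in multiple tissues. In young adult neurons they were the 2 calls of 8, where 9.21% of all tested genes were lower and 17.0% changed. For mdh-1 the level was 36.2 ± 25.5 CPM in young adult neurons and 1691 ± 81.8 CPM in multiple tissues (n = 2 each), a log2 fold change of -5.54 ± 1.11 (SE, with adjusted p = 0.00844); for mdh-2 it was 19.9 ± 12.8 CPM in young adult neurons and 406 ± 20.1 CPM in multiple tissues, a log2 fold change of -4.35 ± 0.80 (SE, with adjusted p = 0.00548). The aconitases had no read in young adult neurons, and against the floor of 3 reads a library (mean 10.9 CPM) aco-1 was at least 1.47-fold and aco-2 at least 1.28-fold lower than in multiple tissues; neither passed. The median fitted value was -4.62 over the 8 genes, or -2.42 with the aconitases at these bounds, and -2.05 over all tested genes (-1.19 with DESeq2's size factors). The mdh-2 call held in each of the 12 alternatives (adjusted p from 4.22e-06 to 0.0324), and the mdh-1 call was lost without young adult neuron replicate 1 (-4.96; 3.83e-09 to 0.0689). Without young adult neuron replicate 2, mdh-2 had -5.21 and mdh-1 -6.54.

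In day 12 neurons 3 of 8 genes were lower than in multiple tissues, where 5.22% of all tested genes were lower and 12.1% changed. These were mdh-2 (-4.41 ± 0.84 (SE, with adjusted p = 0.00816)), mdh-1 (-4.23 ± 1.05 (SE, with adjusted p = 0.0285)) and dlst-1 (-4.05 ± 0.87 (SE, with adjusted p = 0.0145)). The mdh-2 call held in each of the 12 alternatives (6.81e-07 to 0.0457). The mdh-1 call was lost with DESeq2's size factors (-2.85; 2.61e-07 to 0.0953), under which the median of all tested genes is 0, in place of -0.62. Its value depended on the library: the day 12 neuron libraries held 17 and 1 reads of mdh-1, and it was -8.30 without replicate 1 and -3.40 without replicate 2, where mdh-2 had -5.42. The dlst-1 call was lost with DESeq2's size factors (-2.67) and without day 12 neuron replicate 1 (-4.48) or 2 (-4.07), with adjusted p from 4.47e-07 to 0.102.

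In young adults, 5 of the 8 genes were higher in muscle than in neurons, where 8.67% of all tested genes were higher and 13.1% changed. The log2 fold changes were 4.61 ± 1.07 (SE, with adjusted p = 0.0186) for mdh-1, 3.12 ± 0.77 (SE, with adjusted p = 0.024) for mdh-2, 3.06 ± 0.74 (SE, with adjusted p = 0.0221) for cts-1 and 2.97 ± 0.77 (SE, with adjusted p = 0.0299) for dlst-1. Mitochondrial aco-2, at 83.7 ± 30.7 CPM in muscle and 0 in neurons, was at least 7.7-fold higher against the floor of 3 reads a library (adjusted p = 0.0207). The cytosolic idh-1 was the 1 gene with a negative value, -1.07 ± 0.97 (SE, with adjusted p = 0.5). The median was 3.86 over the 8 genes, or 3.02 with both aconitases at the floor, and 0.56 over all tested genes. With DESeq2's size factors, which put that last median at 0, the count was 1 (aco-2), with cts-1 at 1.93, dlst-1 at 1.87, mdh-1 at 3.52 and mdh-2 at 2.03. Without muscle replicate 1 or 2 or neuron replicate 1 the count was 0, and without neuron replicate 2 it was 1 (mdh-2, at 3.98). In these leave-outs each of the 5 values stayed positive, with cts-1 at 2.88 to 3.26, dlst-1 at 2.46 to 3.76, mdh-1 at 4.02 to 5.60 and mdh-2 at 2.58 to 3.98. With a block for the replicate number the aco-2 call was lost (adjusted p = 0.0519). Over the alternatives adjusted p ran from 7.49e-07 to 0.155 for these 5 genes. Summed neuron markers reached 4070 to 4580 CPM in young adult muscle and 4730 to 5770 CPM in young adult neurons, and their part in the result was not tested.

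**Figure D3:**
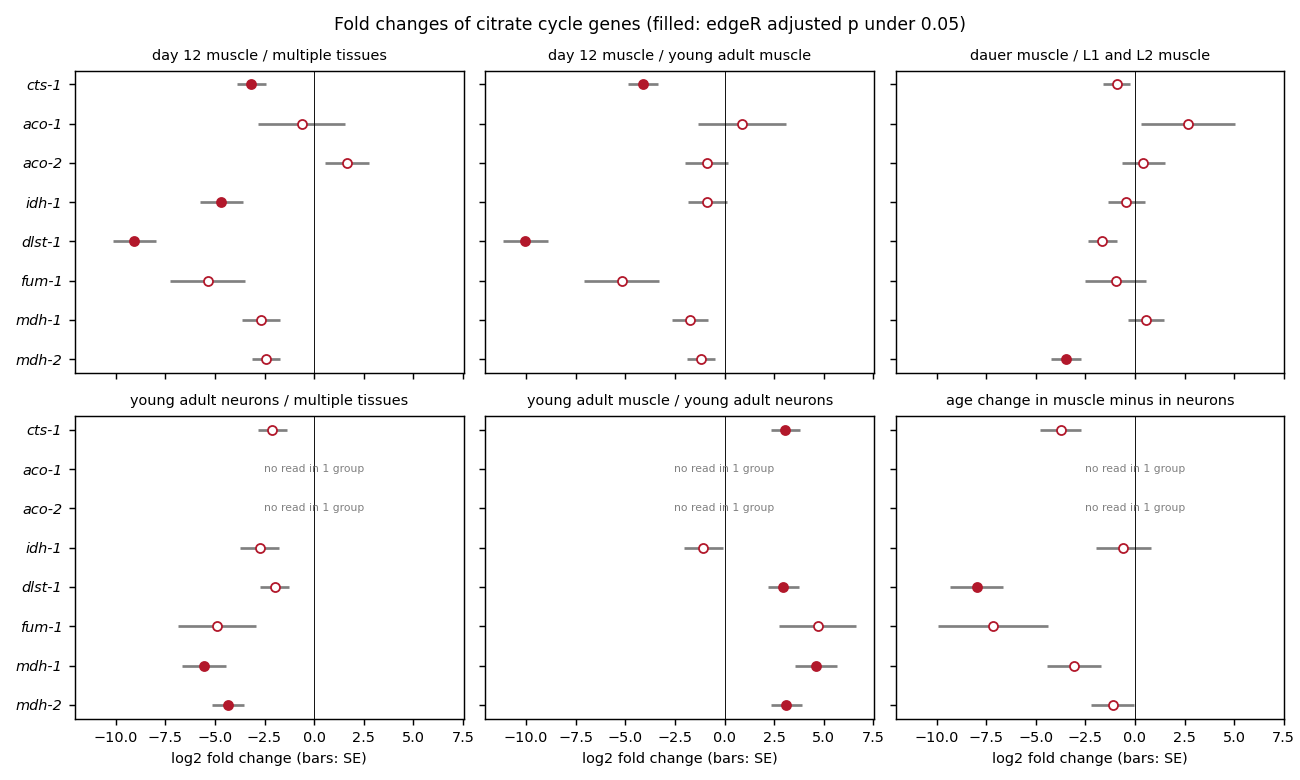
Fitted log2 fold changes (x axis, linear; bars are SE) of the 8 genes in 6 comparisons, with filled points for adjusted p under 0.05 by edgeR; genes without a read in a group have no point. The dlst-1 points lie at -9.06, -10.04 and -7.98 in the day 12 muscle and interaction panels, and mdh-2 is the filled point in dauer muscle.

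Among the 25 other listed genes of the cycle, the pyruvate dehydrogenase complex, the glyoxylate shunt and anaplerosis, 23 were in the table (ogdh-2 and icl-1 were not) and 22 were tested. The phosphoenolpyruvate carboxykinase gene pck-1 was higher than in multiple tissues in young adult muscle (6.19 ± 1.45 (SE, with adjusted p = 0.0382)), day 12 muscle (5.38 ± 1.41 (SE, with adjusted p = 0.0398)), dauer muscle (5.95 ± 1.44 (SE, with adjusted p = 0.0333)) and day 12 neurons (6.23 ± 1.47 (SE, with adjusted p = 0.0221)). These 4 comparisons share the multiple-tissue libraries, which held 7 pck-1 reads. In young adult muscle and in dauers it was the 1 call of 22, where 5.12% of all tested genes changed in young adult muscle and 7.45% in dauers. In day 12 muscle 2 of 22 were lower, against 4.94% of all tested genes, dld-1 (E3 of the oxoglutarate and pyruvate dehydrogenase complexes; -3.89 ± 0.93 (SE, with adjusted p = 0.0334)) and pdhb-1 (pyruvate dehydrogenase E1 beta; -5.15 ± 1.39 (SE, with adjusted p = 0.0453)). In larval muscle 1 of 22 was called, where 7.01% of all tested genes changed. This was the succinyl-CoA ligase gene sucg-1, lower at -6.50 ± 1.60 (SE, with adjusted p = 0.0434). It had no read in L1 and 95.5 CPM in L2, against 243 and 229 CPM in multiple tissues, and as the fit averages L1 and L2 on the log scale, the L1 library at 0 reads sets the size of that value.

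In young adult neurons 6 of 22 were lower than in multiple tissues, against 9.21% of all tested genes. No read was seen of dld-1 (at least 27.9-fold lower against the floor of 3 reads a library), sucg-1 (at least 21.7-fold) or the pyruvate dehydrogenase E1 alpha gene pdha-1 (at least 34.4-fold), and the succinate dehydrogenase iron-sulfur subunit sdhb-1 had -3.49 ± 0.77 (SE, with adjusted p = 0.0134). In day 12 neurons 5 of 22 were lower, against 5.22% of all tested genes, among them sdhb-1 (-3.33 ± 0.78 (SE, with adjusted p = 0.0221)) and the isocitrate dehydrogenase subunit idha-1 (no read, at least 9.24-fold lower, or 7.34-fold against the higher of the 2 floors), and 1, pck-1, was higher. Young adult muscle was above young adult neurons in 3 of 22, against 8.67% of all tested genes, with dld-1 at least 20.9-fold, pdha-1 at least 47.0-fold and sucg-1 at least 2.79-fold higher. The gene pdha-1 is marked as an operon gene and had 5626 SL2-tag reads in muscle. Neurons have no SL2-tag library, so both pdha-1 bounds cover only RNA that received the SL1 tag. By edgeR 0 of 22 passed in day 12 against young adult muscle (6 with an unadjusted p under 0.05), in dauer against larval muscle (5), in dauer against young adult muscle (2), in day 12 against young adult neurons (4), in day 12 muscle against day 12 neurons (2) and in the interaction (6). Of the 8954 tested genes 1724, 1760, 691, 891, 1866 and 1278 had such a p in these comparisons, in that order.

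The cytosolic share of malate dehydrogenase reads was highest in dauers and lowest in L1 and L2 among the muscle libraries. Reads of mdh-1 were 52.2% of both malate dehydrogenase genes in L1 muscle (95% exact interval 48.3 to 56.0) and 54.8% in L2 (51.5 to 58.1), 94.6% and 95.5% in dauers, 84.7% and 82.3% in young adult muscle and 81.6% and 74.0% on day 12, against 80.6% and 80.7% in multiple tissues. Dauers were above, and L1 and L2 below, all other muscle and multiple-tissue libraries. In neurons the share was 94.4% of 18 reads and 20.0% of 5 reads on day 12 and 62.5% of 8 and 65.2% of 23 in young adults, with intervals too wide to order them. In muscle, reads of aco-1 ran from 0% of both aconitase genes (L2, 0 of 92 reads, and dauer replicate 2, 0 of 509) to 33.8% (23 of 68 reads, day 12 replicate 2), against 51.1% and 55.6% in multiple tissues. All muscle libraries were below multiple tissues. These shares were not tested.

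**Figure D4:**
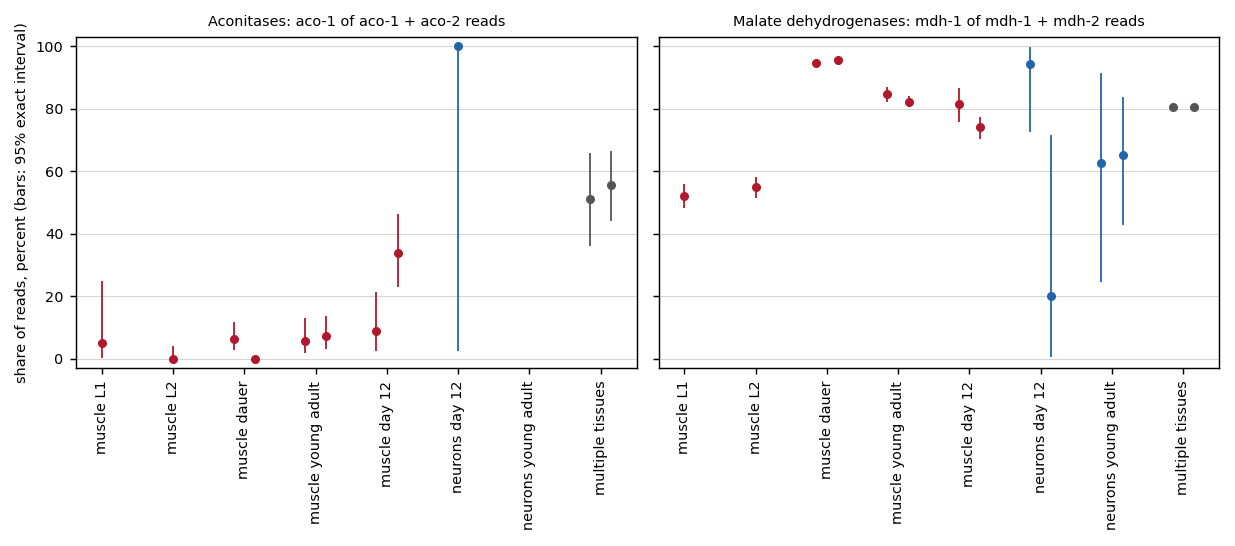
Share of reads on the cytosolic gene, aco-1 of both aconitases (left) and mdh-1 of both malate dehydrogenases (right), in percent by SL1-tag library, with 95% exact intervals; libraries with no read of either gene have no point. The mdh-1 share is 94.6% and 95.5% in dauers, 52.2% and 54.8% in L1 and L2.

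The SL2-tag muscle library held reads of 3 of the 8 genes, and these are the 3 that the deposited table marks as operon genes. Unscaled levels were 735.0 CPM for fum-1 (1853 reads; 95% exact interval 702 to 769), 94.8 CPM for dlst-1 (239 reads; 83.2 to 107.6) and 89.2 CPM for cts-1 (225 reads; 78.0 to 101.7). The other 5 genes had 0 reads, for which the floor of 3 reads is 1.19 CPM and the 95% exact upper limit 1.46 CPM. Across the table, 45.3% of 2009 operon genes and 0.64% of 12822 other genes had an SL2-tag read. In the 8 SL1-tag muscle libraries fum-1 ran from 0 to 169 unscaled CPM with a median of 55.4, below its level in the SL2-tag library. For cts-1 the SL1-tag median was 493 CPM (30.1 to 851.7) and for dlst-1 365 CPM (0 to 847.5), and the SL2-tag value lay inside both ranges. The SL2-tag library is of mixed stage and has no replicate. Its reads lay on 992 genes, with 97.7% of reads on operon genes, while SL1-tag muscle libraries had reads on 4302 to 7945 genes. CPM of the 2 tags thus refer to unlike totals, and these values do not compare the use of the 2 leaders. The nearest upstream protein-coding gene on the same strand ended 360 bases before fum-1 (H14A12.3), 476 before dlst-1 (sna-1) and 666 before cts-1 (rde-4), and 1769 to 15544 bases before the other 5. None of H14A12.3, sna-1 and rde-4 is marked as an operon gene, so these distances do not name operon partners. Among the other listed genes pdha-1 (5626 reads), idhg-1 (694) and sucl-2 (240) had SL2-tag reads above the floor; idhg-1 is not marked as an operon gene.

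**Figure D5:**
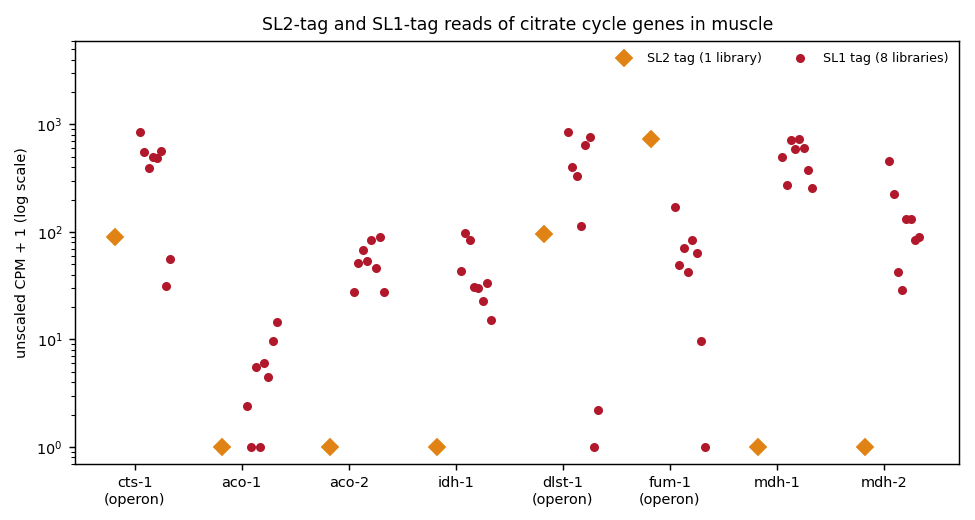
Unscaled CPM plus 1 on a log axis, of the 8 genes in the SL2-tag muscle library (diamonds) and the 8 SL1-tag muscle libraries (circles); operon marks the genes so marked in the deposited table. Diamonds lie above 1 for cts-1, dlst-1 and fum-1 and at 1, which is no read, for the other 5.

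Across the 14 SL1-tag libraries, levels on the log2 scale were most alike between cts-1 and dlst-1 (Pearson r 0.867), cts-1 and fum-1 (0.847) and fum-1 and mdh-1 (0.826), while aco-1 and dlst-1 had -0.0988. These libraries share groups and differ in depth, and the values describe them. The tested genes most like cts-1 were rpt-6 (0.927), a proteasome ATPase, and arx-1 (0.925), of the Arp2/3 complex, which also led for fum-1 (0.914). For dlst-1 they were the alpha-tubulin tba-1 (0.937) and the chaperonin subunit cct-4 (0.915). The glutamate dehydrogenase gene gdh-1 was most like mdh-1 (0.976), rpl-24.2 most like aco-2 (0.981), F10D11.2 most like idh-1 (0.895), F09F7.4 most like aco-1 (0.958) and W04C9.2 most like mdh-2 (0.972).

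The authors' deposited tables of comparisons, at an adjusted p under 0.05 of the authors, called more of the 8 genes in most comparisons. In the authors' deposited table for young adult muscle over multiple tissues 6 of 8 passed (3 higher, 3 lower), among 37.5% of its genes, with idh-1 at a fold change of 0.0707. In the authors' deposited table for day 12 over young adult muscle 2 of 8 were lower, among 2.75% of its genes, with dlst-1 at 0.00086 and cts-1 at 0.0776. The authors' deposited tables over multiple tissues further called 5 of 8 in day 12 muscle (among 13.3% of genes), 4 in dauers (29.0%), 2 in larval muscle (14.1%), 5 in day 12 neurons (25.1%) and 6 in young adult neurons (34.6%), each lower. In the authors' deposited table for day 12 over young adult neurons 0 of 8 passed, among 1.85% of its genes. In the authors' deposited table for dauers over larval muscle, whose column of means is named for L2, 0 of 8 passed, among 2.38% of its genes, with mdh-2 at 0.188 (adjusted p = 1.0 there). The authors' fold change of aco-1 in larval muscle over multiple tissues was 0, though L1 held 1 aco-1 read and L2 held 0. The authors' larval side thus does not appear to be the L1 and L2 pair tested above, and its counts are not like for like.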

How the data were processed

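The libraries were made by pulling down tagged RNA with a probe against the tag, followed by full-length cDNA, PCR in 2 rounds, Tn5 fragmentation and paired sequencing, per the labels' protocols. Trimmomatic, TopHat2 and DESeq are named, without roles or versions, in the submitters' processing notes, and the genome build is not given in the sources used here. The authors deposited raw read counts per gene and per splice acceptor site. They also deposited RPM values (counts divided by 1 number per library, whose meaning is not stated) and tables of their comparisons, with a fold change as a ratio of normalised means and an adjusted p-value. In each table of counts or RPM values 3 per-sample columns match no library and were not used.

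The 14 SL1-tag libraries entered 1 model of 8 group means in edgeR 4.0.16 (R 4.3.3), without a replicate block. Genes were filtered with filterByExpr, which left 8954, and scaled by TMM (factors 0.722 to 1.67). There were 6 residual degrees of freedom, and the common biological coefficient of variation was 1.09. Each SE was computed as |log2 fold change| divided by the root of F. L1 and L2, with 1 library each, are assumed to vary like the other groups. Benjamini-Hochberg adjustment ran over all 8954 genes and the threshold was 0.05. The procedure was tested on simulated data for day 12 muscle over multiple tissues, with the same spread for every gene. It recovered set fold changes at a small spread and called none of them at the pooled spread. In the real data spread differs by gene, and 9.82% of tested genes were called in that comparison. The simulation thus does not give the power of the real fit. An uncalled gene is still not shown to be unchanged. Alternatives were DESeq2's size factors, the DESeq2 1.42.0 Wald test, no filter, a replicate block, only the groups compared, limma 3.58.1 on log2(RPM + 1) and on log2(RPM + 0.1) (genes at an RPM of 1 or more in 2 libraries), and leave-one-out fits. The SL2-tag library was described, not tested. Depth sets the floor of 3 reads a library.

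The 8 genes and the list of 25 others were chosen with earlier results of these data known. Named are all 8 genes, the other listed genes that passed, up to 4 a comparison by smallest p, and tested genes most like each member by Pearson's r. Coordinates and start codons are those of WBcel235, after 1 was added to plus-strand site positions.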

Additional observations from a re-analysis of the deposited data

Results flagged for a closer look

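Some reads of these genes lay at sites that the gene counts leave out, where multiple tissues held 0 reads at the same site. At cis-splice acceptor sites of aco-2 there were 4 reads in day 12 neuron replicate 2 and 9 reads in dauer replicate 1. At cis sites of idh-1 there were 6 reads at each of 2 sites in dauer replicate 1. On the strand opposite to mdh-2, young adult muscle replicate 2 held 15 reads at 1 site. Each of these values comes from a single library. Gene aco-2 had no trans-site read in day 12 neuron replicate 2.

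The age change of dlst-1 in muscle minus that in neurons was -7.98 ± 1.33 on the log2 scale (SE; adjusted p = 0.0318 by edgeR's quasi-likelihood test), with both day 12 muscle libraries below both young adult ones and both day 12 neuron libraries below both young adult ones. It was listed here because the fitted age change differed between the 2 tissues in this test. As given above, the call did not hold in all alternatives. On leaving out 1 library the value ran from -11.52 to -7.38, and 0 reads set the size of the first. The day 12 neuron libraries held 3 and 4 dlst-1 reads, at or near the floor of 3 reads. All these values cover only dlst-1 RNA that received the SL1 tag.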

How the results depend on the processing

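The count of the 8 genes past the threshold is given here under each alternative that moved it by over 1.5 times, with the reported count in parentheses. With DESeq2's size factors the count was 1 (3) for day 12 neurons over multiple tissues and 1 (5) for young adult muscle over young adult neurons. Over all tested genes the counts there were 1162 (1085) and 1084 (1175). Without the filter the count was 1 (0) for young adult muscle over multiple tissues, 5 (3) for day 12 muscle over multiple tissues and 1 (0) for larval muscle over multiple tissues. With the replicate block the count was 0 (1) for dauer over larval muscle. In fits of only the groups compared the count was 7 (0) for young adult muscle over multiple tissues, 5 (3) for day 12 muscle over multiple tissues, 0 (2) for day 12 over young adult muscle, 3 (1) for dauer muscle over multiple tissues, 6 (0) for larval muscle over multiple tissues, 0 (1) for dauer over larval muscle, 8 (2) for young adult neurons over multiple tissues, 6 (3) for day 12 neurons over multiple tissues and 0 (1) for day 12 muscle over day 12 neurons. By DESeq2 the count was 2 (0) for young adult muscle over multiple tissues, 5 (3) for day 12 muscle over multiple tissues, 2 (1) for dauer muscle over multiple tissues, 1 (0) for larval muscle over multiple tissues, 1 (0) for dauer over young adult muscle and 2 (1) for the interaction. By limma on log2(RPM + 1) the count was 2 (0) for young adult muscle over multiple tissues, 5 (3) for day 12 muscle over multiple tissues, 3 (1) for dauer muscle over multiple tissues, 2 (0) for larval muscle over multiple tissues, 7 (2) for young adult neurons over multiple tissues, 7 (3) for day 12 neurons over multiple tissues and 2 (1) for the interaction. By limma on log2(RPM + 0.1) the count was 1 (0) for young adult muscle over multiple tissues, 8 (2) for young adult neurons over multiple tissues, 6 (3) for day 12 neurons over multiple tissues, 2 (1) for day 12 muscle over day 12 neurons and 2 (1) for the interaction. With L1 and L2 as 1 group the count was 0 (1) for dauer over larval muscle. Leaving out 3 libraries at once, dauer replicate 2 and the day 12 muscle pair, an alternative chosen after seeing the data, it was 3 (0) for young adult muscle over multiple tissues, 2 (1) for dauer muscle over multiple tissues, 3 (0) for larval muscle over multiple tissues, 8 (2) for young adult neurons over multiple tissues and 6 (3) for day 12 neurons over multiple tissues. Leaving out 1 library gave counts of 1 to 2 (3) for day 12 muscle over multiple tissues, 0 to 2 (2) for day 12 over young adult muscle, 0 to 2 (1) for dauer muscle over multiple tissues, 0 to 1 (1) for dauer over larval muscle, 1 to 2 (2) for young adult neurons over multiple tissues, 0 to 1 (5) for young adult muscle over young adult neurons, 0 to 1 (1) for day 12 muscle over day 12 neurons and 0 to 1 (1) for the interaction. The other counts stayed within 1.5 times, and the cause of these moves was not tested. Beyond DESeq2's size factors, counts over all tested genes are not given here, so these moves are not set against a background. Same-numbered libraries did not deviate together (correlations from -0.0368 to 0.017 over 15 pairs of groups), so the replicate block adds a number only; the block changed the count for young adult muscle over young adult neurons to 4 (5), losing aco-2, besides that for dauer over larval muscle above, and no other count. In the fit of only the day 12 groups 3 of the 8 genes passed the filter on low counts, dlst-1 not among them. The calls that held in every alternative run were dlst-1 in day 12 muscle and mdh-2 in young adult and day 12 neurons, each over multiple tissues.

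The fitted log2 fold change took the opposite sign to the reported one in 34 cases of the 8 genes, none of which passed the threshold in either form. For dauer muscle over multiple tissues, cts-1 had -0.04 without those 3 libraries and -0.06 to 0.28 on leaving out 1 library. For larval muscle over multiple tissues, dlst-1 had -0.19 by limma on log2(RPM + 1), -0.19 by limma on log2(RPM + 0.1) and -0.03 to 0.91 on leaving out 1 library, fum-1 had 0.08 with L1 and L2 as 1 group and -0.97 to 0.70 on leaving out 1 library and mdh-2 had -0.64 to 0.22 on leaving out 1 library. For dauer over larval muscle, aco-1 had -2.25 to 5.01 on leaving out 1 library, aco-2 had -0.07 to 0.90 on leaving out 1 library and idh-1 had 0.12 without those 3 libraries and -1.40 to 0.16 on leaving out 1 library. For dauer over young adult muscle, idh-1 had -0.27 to 1.24 on leaving out 1 library. For day 12 over young adult neurons, cts-1 had 0.01 by limma on log2(RPM + 1) and -1.80 to 0.35 on leaving out 1 library, idh-1 had 0.03 with the groups compared alone and -2.73 to 0.44 on leaving out 1 library, fum-1 had -5.71 to 7.77 on leaving out 1 library, mdh-1 had -2.60 to 2.31 on leaving out 1 library and mdh-2 had 0.20 with DESeq2's size factors, 0.24 by DESeq2, 0.32 by limma on log2(RPM + 1), 0.49 by limma on log2(RPM + 0.1) and -0.92 to 0.80 on leaving out 1 library. For day 12 muscle over day 12 neurons, cts-1 had -1.49 to 0.77 on leaving out 1 library, idh-1 had -2.31 to 0.85 on leaving out 1 library and fum-1 had -7.59 to 5.29 on leaving out 1 library. For the interaction, aco-1 had -5.56 to 0.85 on leaving out 1 library, idh-1 had -1.30 to 1.86 on leaving out 1 library, fum-1 had -12.96 to 0.54 on leaving out 1 library and mdh-1 had -4.06 to 0.84 on leaving out 1 library. Depth limits the neurons most: a floor of 3 reads is 10.8 to 32.4 CPM there, against 1.14 to 1.84 CPM in multiple tissues, so low members could not be ordered between neuron groups.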
